A study of Mus musculus with 31 samples.

Results

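The genes described here are 30 that code for the enzymes and regulators of sterol and fatty acid synthesis, followed in 4 populations of immune cells from mouse hearts. They were chosen by their place in the pathway, with earlier results of these data known: 18 enzymes of the route from acetyl-CoA to cholesterol, 5 genes of sterol regulation and transport, and 7 genes of fatty acid synthesis. All 30 are among the 24421 genes of the count files and all passed the low-count filter that left 13039 genes for testing. The mice were Balb/c, aged 8 to 12 weeks, with no transgene or other treatment named in the labels. Hearts came either from the steady state (SS) or from mice with an infarction (MI), made by tying off the left anterior descending coronary artery for good. What else differed in preparing both states cannot be told apart from the infarction. In each state 4 cell populations were sorted: conventional dendritic cells of type 1 (cDC1) and type 2 (cDC2), and monocyte-derived cells with CD11c (called moDC in the labels) or without it (called macrophages, MF). The 31 libraries make 8 groups of 4, except MI cDC2 with 3. The labels give no time after ligation, sham operation, sex of the mice or pooling of hearts, nor whether samples came from separate animals, so p-values measure only the spread between these samples, which may be technical. The series title concerns dendritic cell activation after infarction and the priming of autoreactive T cells.

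Cells make cholesterol from acetyl-CoA through mevalonate, farnesyl pyrophosphate, squalene and lanosterol. The transcription factor SREBP2, made from Srebf2, is held in the endoplasmic reticulum by Scap and the Insig proteins when sterols are plentiful. It is released and switches on the enzyme genes, Insig1 among them, when sterols are scarce. SREBP1, from Srebf1, does the same for fatty acid synthesis genes and is itself a target of the oxysterol receptor LXR. Macrophages that take up dead cells receive cholesterol with them.

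Each library held 9148624 to 16531349 reads in genes. Reads in no annotated feature made up 11.6% to 16.9% in the SS libraries numbered 1 and 4, against 6.42% to 9.26% in SS numbers 2 and 3 and 6.85% to 10.9% in MI. The markers given next followed the labels. Mean Xcr1 was 909.9 CPM (the usual library-size unit, TMM-scaled) in SS cDC1 and at most 3.53 CPM in the other SS groups, Cd209a was highest in cDC2 (2258 CPM), C1qa in MF (5267 CPM), and Itgax, the gene of CD11c, was 337.1 CPM in SS moDC against 7.5 CPM in SS MF. Not every marker did so. Mean Lyz2 was 19550 CPM in SS cDC2 and 17880 in SS MF, and Sirpa, of the cDC2 list, was 826.6 and 1234. The 8 macrophage and monocyte markers, Lyz2 among them, summed to a mean of 24850 CPM in SS cDC2, 28090 in SS moDC and 28330 in SS MF. CPM values below are given as mean ± SD with n = 4, or n = 3 for MI cDC2. Folds, standard errors (SE) and adjusted p-values come from edgeR's quasi-likelihood test with Benjamini-Hochberg adjustment over all 13039 genes, and a gene was called when adjusted p was under 0.05. In the annotation the exons of Fdft1, Cyp51 and Srebf1 overlap those of Ctsb, Akap9 and Rai1 on the opposite strand, and those of Fdps and Tm7sf2 overlap Gm43738 and Vps51 on the same strand. Whether the counting used strand is not given in the sources used here, so the values of these 5 genes may hold reads of the overlapping gene. In bulk samples of sorted cells, fewer cells that express a gene and less RNA of it per cell cannot be told apart.

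The start regions of 4 genes are shown because the results turn on them: Hmgcs1 and Insig1 fell in cDC2 after MI, Srebf2 was higher in SS cDC2 and cDC1 than in SS MF and moDC without overlap, and Fasn stands for the fatty acid branch. They are RefSeq sequences on GRCm38.p6, cut to the bases that lie before the first annotated exon base, 5′ to 3′ on the gene's strand. Capitals mark the sterol regulatory element TCACNCCAC (N is any base) and the CCAAT box, which reads ATTGG on the opposite strand; CCAAT and ATTGG share 2 bases where they overlap in Fasn.
Hmgcs1, chr13:119690101-119690350, plus strand: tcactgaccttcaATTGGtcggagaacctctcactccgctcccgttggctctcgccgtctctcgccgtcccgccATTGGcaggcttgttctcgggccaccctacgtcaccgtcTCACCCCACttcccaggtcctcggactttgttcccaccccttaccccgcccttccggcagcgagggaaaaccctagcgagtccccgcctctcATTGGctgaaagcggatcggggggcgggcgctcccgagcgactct
Insig1, chr5:28071162-28071362, plus strand: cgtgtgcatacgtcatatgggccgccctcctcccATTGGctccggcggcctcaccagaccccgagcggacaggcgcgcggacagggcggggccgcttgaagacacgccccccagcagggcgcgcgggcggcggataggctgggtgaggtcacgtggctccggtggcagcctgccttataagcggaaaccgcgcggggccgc
Srebf2, chr15:82147019-82147180, plus strand: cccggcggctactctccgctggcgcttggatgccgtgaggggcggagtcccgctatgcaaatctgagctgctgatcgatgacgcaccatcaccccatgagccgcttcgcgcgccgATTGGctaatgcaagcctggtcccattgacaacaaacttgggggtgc
Fasn, chr11:120824548-120824797, minus strand: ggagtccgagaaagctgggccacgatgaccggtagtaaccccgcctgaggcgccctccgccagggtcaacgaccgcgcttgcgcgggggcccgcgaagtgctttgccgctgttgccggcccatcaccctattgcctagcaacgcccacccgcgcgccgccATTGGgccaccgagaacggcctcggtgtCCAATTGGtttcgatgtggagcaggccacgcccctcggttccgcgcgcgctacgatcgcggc

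Of the 30 genes, 24 matched the RefSeq promoter table, with 32 promoters of 250 bases before to 50 after the start. Letters of the CCAAT box, on either strand, were in 21 of these 32 (65.6%, 20 genes), against 37.4% of all 32851 promoters in the table. The GC box GGGCGG, on either strand, was in 24 of 32 (75%, 20 genes) against 35.7% of all. The strict sterol element TCACNCCAC was in 1 of 32, that of Hmgcs1, where TCACCCCAC begins 137 bases before the start, against 1.24% of all promoters. These matches describe the letters and show no binding.

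In steady-state hearts the pathway was graded over the cell types, with MF at the bottom and the conventional dendritic cells at the top. The summed level of the 18 sterol enzymes was 585 ± 67.2 CPM in MF (503 to 648), 742 ± 49.0 in moDC (677 to 796), 1025 ± 67.7 in cDC2 (924 to 1067) and 1038 ± 110 in cDC1 (899 to 1127). No MF library reached the lowest moDC library and no moDC library the lowest cDC2 library, while cDC2 and cDC1 overlapped. The 6 fatty acid enzymes (without Srebf1) summed to 228 ± 33.6, 375 ± 80.9, 525 ± 59.1 and 540 ± 45.6 CPM in the same order. Of the 30 genes, 24 (80%) had their lowest group mean in MF, against 30.3% of all genes tested, and 15 (50%) had their highest in cDC1 and 11 (36.7%) in cDC2, against 30.9% and 21.5%. A level that differed among the 4 SS cell types was called for 25 of the 30, where the background of all genes is 50.1%. The 5 not called were Acat2, Mvk, Tm7sf2, Sc5d and Elovl6.

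**Figure D1:**
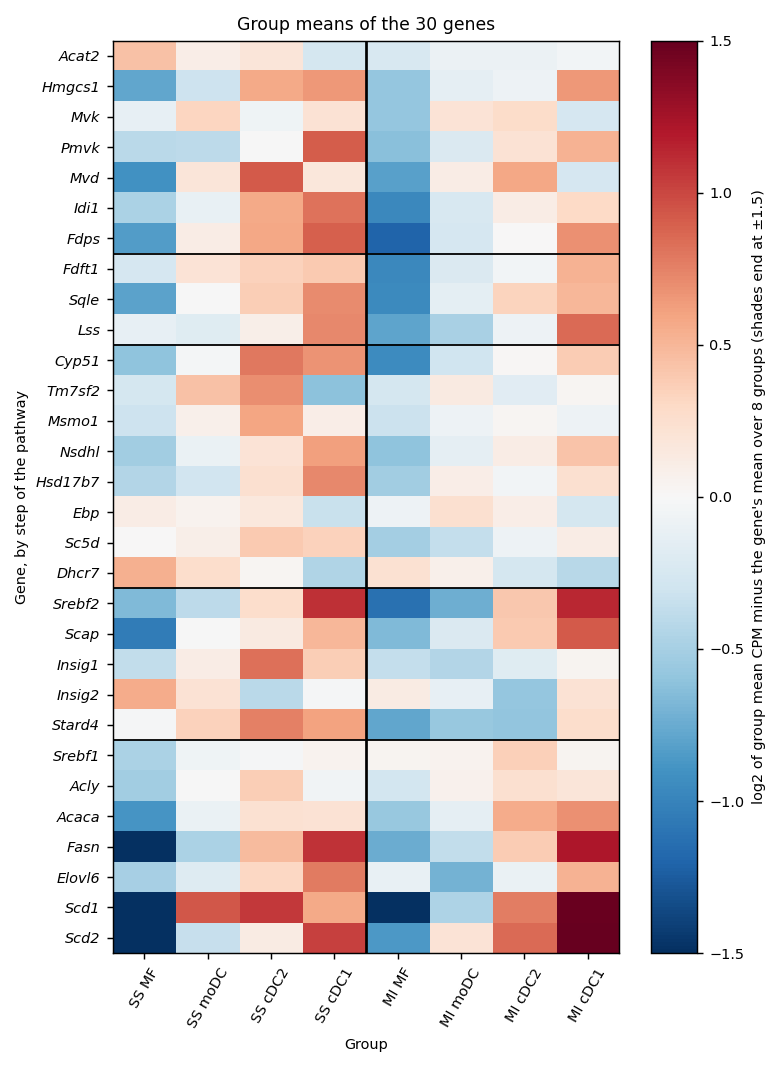
Group means of the 30 genes as log2 CPM minus each gene's own mean over the 8 groups (colour, with shades ending at 1.5 either way), genes in pathway order (rows) and groups (columns), SS left and MI right of the line. In SS, 24 of 30 genes are lowest in MF, and Dhcr7, Insig2 and Acat2 are highest there.

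Testing neighbours in SS, 11 genes were higher in moDC than in MF and 0 lower (36.7% of 30), where the background of all genes is 12.9% called, 8.56% higher and 4.34% lower. With the replicate number as a block, 14 were higher and 0 lower, the 11 among them, and the 3 added were Msmo1 (edgeR adjusted p = 0.00497 with the block and 0.0923 without), Nsdhl (0.0441 and 0.107) and Srebf1 (0.0433 and 0.112). In cDC2 against moDC, 9 were higher and 1 lower, with a background of 15.4% called, 7.35% higher and 8.05% lower. In cDC1 against cDC2, 3 were higher and 7 lower, with a background of 28.2% called, 11.7% higher and 16.4% lower. That split was 6 and 6 with upper-quartile scaling in place of TMM. With SS numbers 1 and 4 alone 5 were higher and 1 lower, and 4 of the 10 calls were kept. With SS numbers 2 and 3 alone 3 were higher and 5 lower, and 7 were kept. Gene by gene, cDC1 and cDC2 differed in both directions.

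Among the mevalonate enzymes, Hmgcs1, which makes HMG-CoA, had 39.3, 41.9, 40.9 and 43.4 CPM in the SS MF libraries, 53.0, 46.5, 57.2 and 71.7 in moDC, 109, 97.7, 94.9 and 118 in cDC2 and 128, 125, 100 and 90.7 in cDC1. The groups did not overlap from MF to moDC to cDC2. It rose 1.38-fold from MF to moDC (log2 0.46, SE 0.15, adjusted p = 0.0340) and 1.84-fold from moDC to cDC2 (0.88, SE 0.15, 5.59e-05). Fdps, the farnesyl pyrophosphate synthase, stood at 33.6 ± 5.05 in MF and 64.9 ± 5.35 in moDC (1.93-fold, adjusted p = 1.72e-04 in edgeR), then 89.8 ± 15.6 in cDC2 and 112 ± 24.2 in cDC1. Idi1, the isomerase of isopentenyl pyrophosphate, rose from 96.6 ± 18.6 in moDC to 155 ± 5.07 CPM in cDC2 (1.60-fold, adjusted p = 0.00762 in edgeR), with 75 ± 16.7 in MF and 184 ± 31.5 in cDC1. Mvd, which decarboxylates mevalonate pyrophosphate, peaked in cDC2: 9.26 ± 3.41, 19.7 ± 2.11, 32.7 ± 4.18 and 19.6 ± 5.24 CPM from MF to cDC1, with all 3 steps called (edgeR adjusted p = 8.61e-04, 0.0201 and 0.0103). Pmvk, the kinase before it, had its highest mean in cDC1, at 30.4 ± 6.64 against 16.1 ± 3.14 CPM in cDC2 (1.89-fold, edgeR adjusted p = 8.56e-04). Mvk and Acat2, the first mevalonate kinase and a cytosolic thiolase, ran at 11.8 to 16.0 and 9.05 to 14.7 CPM with no called step. The Hmgcs1 step from MF to moDC was lost without any 1 of the 4 SS MF libraries or SS moDC replicates 3 and 4 (adjusted p 0.0531 to 0.168), and the Mvd step to cDC2 without SS cDC2 replicate 3 (0.069) or SS moDC replicate 1 (0.0545).

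Of the 3 enzymes from farnesyl pyrophosphate to lanosterol, Sqle, the squalene epoxidase, had the clearest gradient. Its SS values were 28.2, 23.9, 36.1 and 29.7 CPM in MF, 43.6, 65.0, 40.7 and 55.1 in moDC, 70.7, 61.3, 72.6 and 60.4 in cDC2 and 65.2, 87.5, 92.7 and 89.8 in cDC1. MF libraries lay below all others, and the other neighbours overlapped. The step from MF to moDC was 1.73-fold (log2 0.79, SE 0.19, adjusted p = 0.00309 in edgeR). Fdft1, the squalene synthase, ran from 21.8 ± 2.32 CPM in MF to 34.0 ± 1.39 in cDC1, and Lss, the lanosterol synthase, from 12.6 ± 2.03 in moDC to 23.5 ± 3.41 in cDC1. Both differed among the 4 cell types (adjusted p = 0.0245 and 0.0126 in edgeR's F test) with no single neighbouring step called. The Fdft1 result was lost without SS MF replicates 1, 2 or 4 (0.063 to 0.0838) and that of Lss without SS cDC1 replicates 2 or 3 (0.0504 and 0.0538).

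After lanosterol the genes did not move as one. Cyp51, the lanosterol demethylase, followed the early enzymes, with 51.4, 53.2, 62.4 and 42.8 CPM in SS MF, 86.8, 77.9, 85.9 and 60 in moDC, 150, 150, 130 and 121 in cDC2 and 134, 132, 122 and 122 in cDC1. Only moDC replicate 4 fell within the MF range, and all cDC2 libraries lay above all moDC libraries. The steps were 1.48-fold (adjusted p = 0.00597 in edgeR) and 1.77-fold (7.63e-05). Msmo1, a sterol methyl oxidase, peaked in cDC2 at 130 ± 23 CPM, above moDC (91.2 ± 13.8, edgeR adjusted p = 0.0163) and cDC1 (92.6 ± 13.5, 0.0118). Nsdhl and Hsd17b7, which act in the same demethylation complex, rose in small steps to 54.7 ± 5.66 and 19.8 ± 1.93 CPM in cDC1 from 24.9 ± 3.96 and 8.85 ± 1.02 in MF (F test adjusted p = 9.18e-06 and 0.00249 in edgeR). Dhcr7, which makes cholesterol from 7-dehydrocholesterol, ran the other way: 58.9 ± 8.27 in MF, 48.8 ± 4.13 in moDC, 41.5 ± 6.42 in cDC2 and 29.7 ± 3.46 CPM in cDC1, the last step being called (1.4-fold lower, with overlap, edgeR adjusted p = 0.0126). Ebp, the sterol isomerase, and Tm7sf2, a sterol reductase, were also lower in cDC1 than in cDC2, at 59.9 ± 17.9 against 84.0 ± 9.76 CPM (edgeR adjusted p = 0.0187) and 3.57 ± 1.80 against 8.86 ± 2.86 (0.0298), with overlapping libraries. Sc5d ran from 22.3 to 29.2 CPM with no call. Calls were lost for Msmo1 without SS cDC2 replicate 2 (0.0722 against moDC and 0.058 against cDC1), SS moDC replicate 4 (0.0746) or SS cDC1 replicate 4 (0.0586), for Ebp without SS cDC1 replicate 4 (0.105) or SS cDC2 replicate 2 (0.0732), and for Tm7sf2 without SS cDC1 replicates 1, 3 or 4 or SS cDC2 replicates 2 or 3 (0.0627 to 0.0983).

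Among the regulators, Srebf2 set cDC2 and cDC1 apart from the other cell types. Srebf2 had 177, 134, 140 and 147 CPM in SS MF, 179, 155, 190 and 195 in moDC, 258, 263, 319 and 290 in cDC2 and 535, 475, 525 and 471 in cDC1. MF and moDC overlapped, and cDC2 and then cDC1 stood clear above them. The step to cDC2 was 1.57-fold (log2 0.65, SE 0.13, adjusted p = 4.88e-04 in edgeR) and that to cDC1 1.77-fold (0.83, SE 0.13, 5.06e-06). Scap, the escort of SREBP, rose 2.07-fold from MF (41.7 ± 2.93 CPM) to moDC (86.2 ± 5.25, edgeR adjusted p = 8.22e-06) and reached 122 ± 12.1 in cDC1. Insig1 peaked in cDC2: 96.3 ± 20.9 CPM in MF, 135 ± 8.07 in moDC, 221 ± 26.8 in cDC2 and 161 ± 27.6 in cDC1, with each step called (edgeR adjusted p = 0.0200, 5.30e-04 and 0.0141). Insig2, the other sterol-sensing retention protein, was the mirror image, lowest in cDC2 at 24.8 ± 2.03 CPM against 37.9 ± 7.64 in moDC (1.53-fold lower, edgeR adjusted p = 0.0153) and 48.0 ± 8.84 in MF. Stard4, a cholesterol carrier of the cytosol, ran from 14 ± 2.68 in MF to 23.9 ± 2.19 CPM in cDC2 (F test adjusted p = 0.0362 in edgeR). Per kilobase of exon length, which lets genes be compared, Insig1 had the highest level of the 30 in SS cDC2 (71.3 CPM per kb), with Srebf2 at 39.4, and Acaca (1.04) and Elovl6 (0.988) had the lowest. The Insig1 step to moDC was lost without SS MF replicates 1, 3 or 4 (0.0565 to 0.11) and its fall to cDC1 without SS cDC2 replicate 2 (0.0682). The Stard4 result was lost without SS MF replicates 1, 2 or 4, SS cDC2 replicates 1 or 3 or SS cDC1 replicate 4 (0.0513 to 0.115). The Insig2 call was lost without SS cDC2 replicate 1 (0.0516) or SS moDC replicate 2 (0.082).

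**Figure D2:**
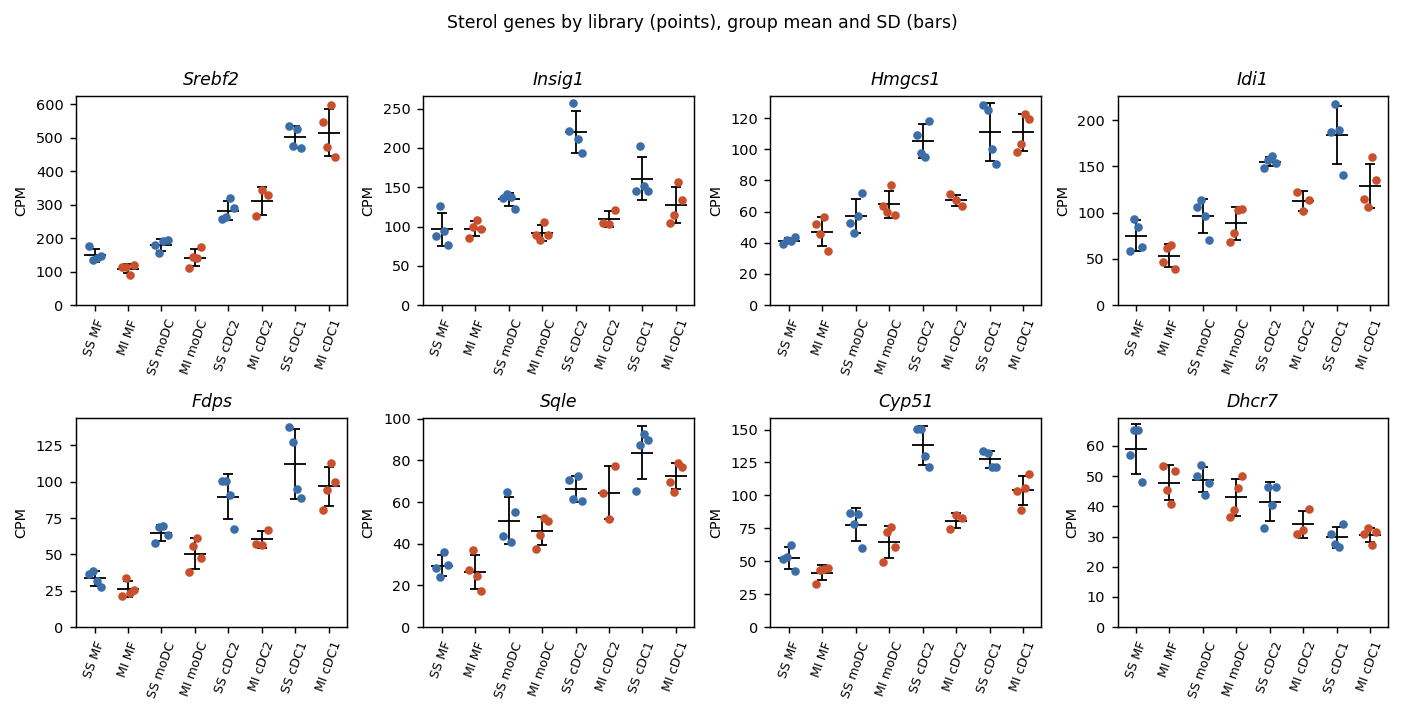
CPM (vertical, from 0) of 8 sterol genes in every library (points, SS blue and MI orange) with the group mean and SD (black bars), groups along the horizontal axis. Srebf2 climbs from 149 CPM in SS MF to 502 in SS cDC1 while Dhcr7 descends from 58.9 to 29.7, and Insig1 and Cyp51 are lower in MI cDC2 than in every SS cDC2 library.

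All 7 fatty acid genes had their lowest SS mean in MF. Fasn, the fatty acid synthase, had 39.9, 13.1, 21.2 and 30.8 CPM in MF, 59.6, 34.2, 57.9 and 73.4 in moDC, 118, 102, 73.5 and 139 in cDC2 and 132, 181, 201 and 150 in cDC1. The range of each neighbour overlapped or nearly touched the next, while MF and cDC1 were far apart. The steps to moDC (2.14-fold, adjusted p = 0.00676 in edgeR) and to cDC2 (1.92-fold, 0.0162) were called. Scd2, a stearoyl-CoA desaturase, was 9.92, 4.22, 4.14 and 9.81 CPM in MF, 37.0, 22.4, 45.4 and 38.2 in moDC, 49.5, 38.3, 62.5 and 46.7 in cDC2 and 95.0, 94.0, 93.9 and 86.2 in cDC1. MF lay below and cDC1 above all others, 5.07-fold between MF and moDC (adjusted p = 1.79e-08 in edgeR) and 1.87-fold between cDC2 and cDC1 (0.00181). Acly, which supplies acetyl-CoA from citrate, was the most abundant of the 7 per kilobase and peaked in cDC2 at 338 ± 49.0 CPM, against 182 ± 26.5 in MF, 259 ± 60.3 in moDC and 251 ± 29.9 in cDC1, with each step called (edgeR adjusted p = 0.00783, 0.0447 and 0.0129). Scd1, the paralog of Scd2, was scarce, with 0, 0.490, 1.06 and 2.14 CPM in MF and 2.61, 12.8, 4.67 and 2.01 in moDC (5.96-fold, adjusted p = 0.0322 in edgeR). Reads shared between Scd1 and Scd2 could be split or lost by the counting, so both are uncertain to that extent. Acaca, the acetyl-CoA carboxylase, Elovl6, an elongase, and Srebf1 spanned 8.24 to 17.7, 3.62 to 8.77 and 54.0 to 78.1 CPM with no neighbouring step called. Single libraries decided some of these calls. The Acly step from MF to moDC was lost without SS moDC replicate 4 (0.0667), that to cDC2 without SS moDC replicates 1 or 2 or SS cDC2 replicates 2, 3 or 4 (0.0509 to 0.179), and that to cDC1 without SS cDC1 replicate 2 (0.0589) or SS cDC2 replicate 4 (0.0569). The Fasn step to cDC2 was lost without SS cDC2 replicate 4 (0.061) or SS moDC replicate 2 (0.0736). Scd1 was lost without SS MF replicates 1, 2 or 3 (0.0694 to 0.089) or SS moDC replicate 2 (0.189), and without SS MF replicate 4 its difference was 3.36 on the log2 scale (0.0159).

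After infarction MF was again lowest and cDC1 highest in both sums. The 18 sterol enzymes summed to 494 ± 33.6 CPM in MI MF, 687 ± 73.9 in moDC, 774 ± 44.2 in cDC2 and 902 ± 78.2 in cDC1, and the 6 fatty acid enzymes to 303 ± 27.1, 404 ± 29.5, 524 ± 20.4 and 663 ± 24.7. MF was lowest for 25 of 30 genes (83.3%, all genes 30%) and cDC1 highest for 22 (73.3%, all genes 32.2%). A level differing among the cell types was called for 23 of 30 (background 47.5%).

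Between MI neighbours, 9 genes were higher in moDC than MF and 0 lower, with a background of 10.8% called, 6.65% higher and 4.17% lower. They were Fdps (1.95-fold, edgeR adjusted p = 1.96e-04), Scd2 (2.09-fold), Cyp51 (1.56-fold), Sqle (1.75-fold), Mvd (1.89-fold), Idi1 (1.66-fold), Fdft1 (1.68-fold), Hmgcs1 (1.37-fold) and Srebf2 (1.31-fold). In MI MF and MI moDC, Fdps had 26.0 ± 5.42 and 50.6 ± 10.4 CPM, Idi1 53.2 ± 12.2 and 88.3 ± 18.1, Cyp51 41.4 ± 5.74 and 64.7 ± 12.0, Sqle 26.5 ± 8.09 and 46.2 ± 6.68, and Mvd 9.89 ± 3.01 and 18.8 ± 0.475. Scd2 had 24.9 ± 7.45 and 52.1 ± 6.82, Fdft1 13.3 ± 3.66 and 22.3 ± 2.88, Hmgcs1 47.2 ± 9.51 and 64.6 ± 8.78, and Srebf2 109 ± 13.3 and 142 ± 25.4. Only Srebf2 overlapped between these groups among the 9, which were picked by adjusted p, and the share over all genes was not counted. Fdft1 was lost without MI MF replicate 4 (0.0663). Hmgcs1 was lost without any 1 library other than MI MF replicate 3 (0.053 to 0.215), and Srebf2 without any 1 library other than MI moDC replicate 1 (0.067 to 0.246). With the replicate block 12 were higher in moDC than MF and 0 lower, the 9 among them. Those added were Nsdhl (edgeR adjusted p = 0.0325 with the block and 0.0759 without), Scap (0.0320 and 0.0544) and Acly (0.0323 and 0.0980). Only Srebf2 (2.20-fold, edgeR adjusted p = 4.52e-07) and Scap (1.52-fold, 0.0112) were higher in cDC2 than in moDC (2 of 30, background 10.1% called and 4.49% higher), Scap being lost without MI cDC2 replicate 3 (0.0507). None of the 18 sterol enzymes was called there in edgeR's main fit or by DESeq2 (3 at an unadjusted p under 0.05). Nor was any of the 7 fatty acid genes (2 at an unadjusted p under 0.05). With the replicate block Fasn was called higher in cDC2 than in moDC (edgeR adjusted p = 0.0373, and 0.106 without the block). With only the groups compared in the fit, 5 of 30 were higher and 0 lower, Srebf2 and Scap among them.

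In cDC1 against cDC2 after MI, 10 genes were higher and 1 lower, with a background of 26.8% called, 10.6% higher and 16.2% lower. The higher ones were Srebf2 (1.65-fold), Hmgcs1 (1.65-fold, 111 ± 11.7 against 67.2 ± 3.75 CPM, edgeR adjusted p = 6.65e-04), Insig2 (1.73-fold), Fdps (1.60-fold), Scd2 (1.80-fold), Stard4 (1.81-fold), Scap (1.44-fold), Lss (1.90-fold), Fasn (1.78-fold) and Fdft1 (1.47-fold), and Mvd was 1.77-fold lower. None of the 11 overlapped between the groups. That share was not counted over all genes, and for genes picked by adjusted p it adds no further support. In MI cDC2 and MI cDC1, Srebf2 had 312 ± 41.8 and 516 ± 71.6 CPM, Scap 113 ± 6.01 and 163 ± 16.4, Insig2 21.9 ± 4.52 and 37.9 ± 3.33, and Stard4 9.39 ± 1.74 and 17 ± 3.04. Fdps had 60.4 ± 5.77 and 96.9 ± 13.4, Fdft1 25.2 ± 3.94 and 37.0 ± 6.60, Lss 13.5 ± 4.24 and 25.7 ± 4.02, and Mvd 25.8 ± 3.61 and 14.6 ± 0.822. The lipogenic pair Fasn and Scd2 had 102 ± 22.9 and 181 ± 16.7, and 81.7 ± 0.897 and 147 ± 15.9. Calls were lost without MI cDC2 replicate 1 for Mvd (0.0552), Stard4 (0.0561), Fasn (0.0738) and Fdft1 (0.219), and without replicate 2 for Stard4 (0.0673), Scap (0.060), Lss (0.118) and Fdft1 (0.054). Without MI cDC2 replicate 3, Lss (0.052), Fasn (0.169) and Fdft1 (0.0889) were lost. Without 1 MI cDC1 library Fasn was lost (replicates 2 to 4, 0.0511 to 0.069), as was Fdft1 (replicates 1, 3 and 4, 0.0646 to 0.144).

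Set against SS within a cell type, the cell type with the most members called was cDC2. There 6 of 23 sterol genes fell and 0 rose, 1 of 7 fatty acid genes rose and 0 fell, so that 7 of 30 were called, where the background was 11.0% called, 4.41% higher and 6.63% lower. The median log2 change of the 18 sterol enzymes was -0.31 (16 of 18 negative), against -0.028 over all genes tested. Insig1, itself a target of SREBP2, had 221, 257, 211 and 193 CPM in SS cDC2 and 105, 104 and 122 in MI cDC2. Every MI library was below every SS library, and the gene fell 2.01-fold (log2 -1.004, SE 0.16, adjusted p = 3.23e-05 in edgeR). Stard4 had 24.0, 21.8, 26.9 and 22.9 CPM in SS and 8.66, 8.13 and 11.4 in MI, again without overlap, a 2.55-fold fall (log2 -1.35, SE 0.27, adjusted p = 6.73e-04 in edgeR). Cyp51 had 150, 150, 130 and 121 CPM in SS and 74.5, 85.5 and 82.6 in MI (1.71-fold lower, log2 -0.77, SE 0.15, adjusted p = 8.11e-04 in edgeR). Hmgcs1 had 109, 97.7, 94.9 and 118 CPM in SS and 71.0, 67.2 and 63.5 in MI (1.56-fold lower, log2 -0.64, SE 0.16, adjusted p = 0.00626 in edgeR). Neither gene's libraries overlapped between the states. Fdps fell 1.49-fold (100, 100, 90.8 and 67.3 CPM against 57.4, 56.7 and 67.1, edgeR adjusted p = 0.0415), its highest MI library just under its lowest SS library, and Msmo1 fell 1.48-fold with overlap (140, 152, 131 and 98.6 against 72.6, 88.2 and 104, 0.0211). Srebf2 itself was 283 ± 28.1 in SS and 312 ± 41.8 CPM in MI (edgeR log2 0.14, SE 0.14), and its change was not called.

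Scd2 went the other way in cDC2, with 49.5, 38.3, 62.5 and 46.7 CPM in SS and 82.5, 80.7 and 82.0 in MI, a rise of 1.66-fold without overlap (log2 0.73, SE 0.24, adjusted p = 0.0403 in edgeR). The calls of Insig1, Stard4, Cyp51 and Hmgcs1 held without any 1 library. Fdps was lost without MI cDC2 replicates 1, 2 or 3 or SS cDC2 replicates 1, 2 or 3 (0.0548 to 0.152), Msmo1 without MI replicates 1 or 2 or SS replicates 1 or 2 (0.0516 to 0.167), and Scd2 without any MI replicate or SS replicates 1, 2 or 4 (0.069 to 0.138). Beside these falls, the summed level of 8 macrophage and monocyte markers in cDC2 was 18520 to 31220 CPM in SS and 5955 to 9236 in MI. Of the 8, 6 had a lower mean in MI, Lyz2 (19550 and 3461 CPM) taking most of the sum, while Fcgr1 (36.9 and 84.2) and Ccr2 (1838 and 2149) had a higher one, and all 8 had reads in both groups. The 4 dendritic cell markers summed to 797 to 1093 CPM in SS and 1415 to 1471 in MI, all 4 with a higher mean in MI. The 8 cDC1 markers summed to 835.5 to 948.5 CPM in SS and 678.2 to 820 in MI, 5 of them lower in MI. Naaa alone averaged 513.9 and 373.7 CPM of this, and the others together 370.3 and 384.4. The 10 fibroblast markers summed to 771 to 1064 CPM in SS and 1146 to 1453 in MI, but Gsn alone averaged 928.5 and 1323 CPM of this. The other 9 were all lower in MI and together averaged 16.3 and 5.16 CPM, with Pdgfra at 0 in MI. Each of these 4 sums separated the groups fully, with an adjusted p of 0.0547 in 2-sided exact permutation tests, the lowest reached among 44 such tests. The smallest unadjusted p that such a test can give with 4 against 4 or 4 against 3 libraries is 0.0286. Every sum given here or below with an adjusted p of 0.0547 stood at that limit, which cannot tell a large difference from a small one. The 10 cardiomyocyte markers, at 14.3 to 30.6 and 3.17 to 12.6 CPM, also did not overlap (adjusted p = 0.0967 in the exact permutation test), 9 of them lower in MI and Myh6 at 0 in SS. Their part in the falls was not tested.

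**Figure D3:**
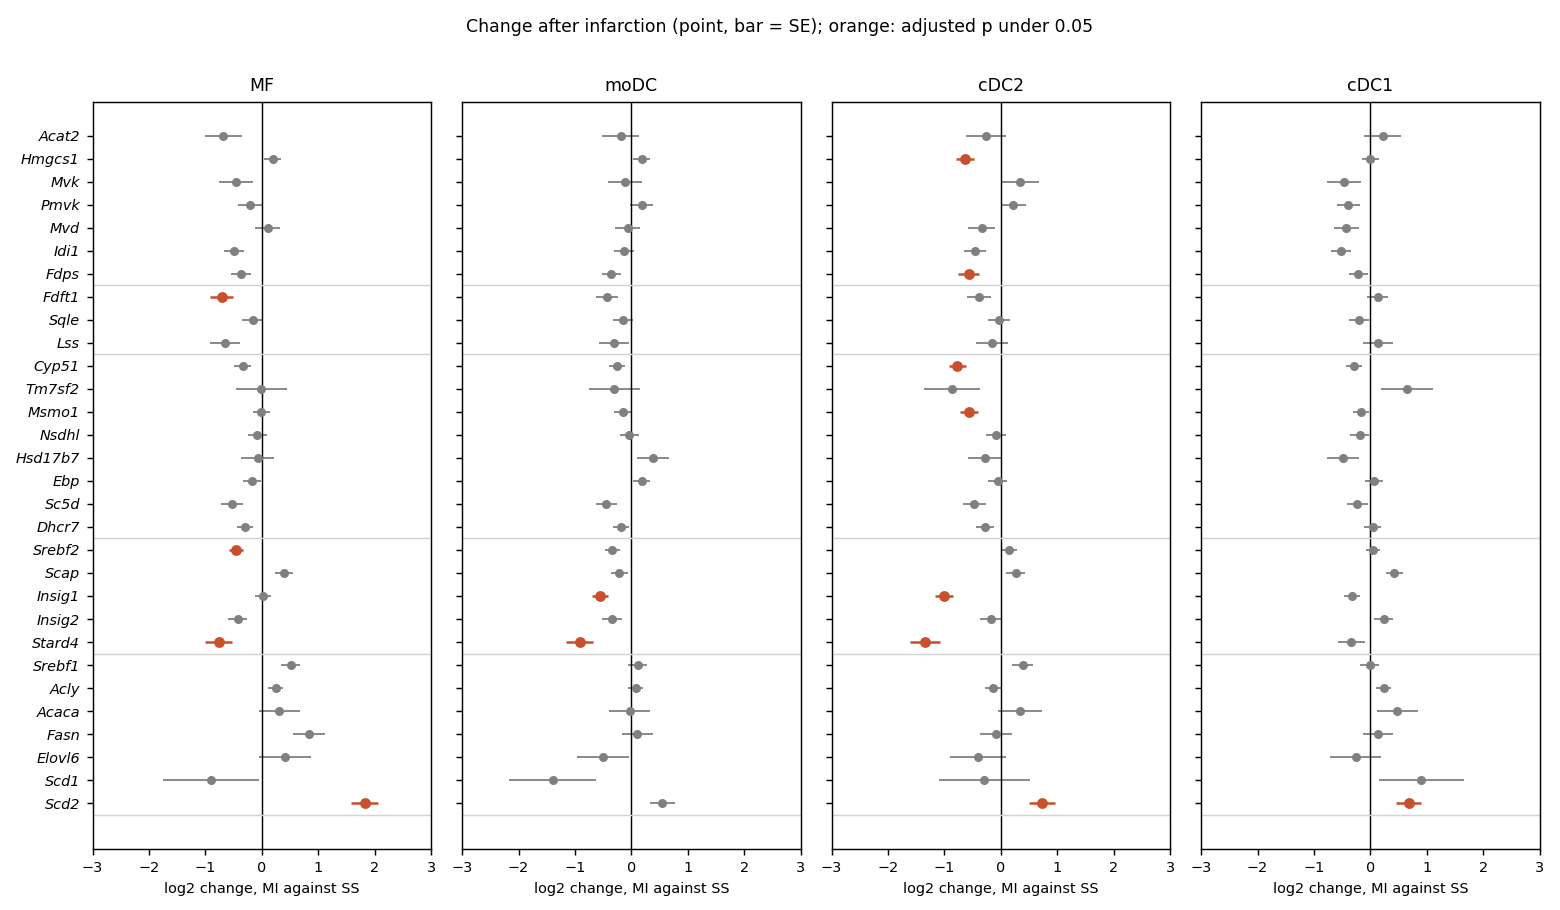
Log2 change from SS to MI (horizontal, point) with its SE (bar) for the 30 genes in pathway order (vertical) in each cell type (panels), orange where edgeR's adjusted p is under 0.05. The orange points number 4 in MF, 2 in moDC, 7 in cDC2 and 1 in cDC1, and every sterol gene among them lies left of 0 and every Scd2 point among them right of it.

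In MF, 3 of 23 sterol genes fell and 0 rose and 1 of 7 fatty acid genes rose, which is 4 of 30 against a background of 7.39% called, 4.01% higher and 3.37% lower. The median of the 18 sterol enzymes was -0.26 (16 of 18 negative, all genes -0.028). With upper-quartile scaling, under which the median of all genes shifted to -0.10, it was -0.33 and 5 of 30 fell. With only the groups compared in the fit, 1 of 30 rose and 0 fell. The replicate number as a block gave 3 rises and 2 falls. Against SS numbers 1 and 4 alone 1 rose and 1 fell, and against SS numbers 2 and 3 alone 3 rose and 5 fell. Fdft1 had 21.1, 19.4, 24.9 and 21.6 CPM in SS and 11.8, 17, 15.5 and 8.91 in MI, with no overlap (1.64-fold lower, log2 -0.72, SE 0.20, adjusted p = 0.0213 in edgeR). Reads where Fdft1 and Ctsb overlap may be lost or mixed, as said above. Srebf2 had 177, 134, 140 and 147 CPM in SS and 114, 113, 89.0 and 118 in MI (1.37-fold lower, log2 -0.46, SE 0.13, adjusted p = 0.0255 in edgeR), the MI libraries all below the SS ones. Stard4 had 15.0, 15.0, 16.1 and 10.1 CPM in SS and 6.43, 9.48, 5.67 and 11.3 in MI (1.70-fold lower, adjusted p = 0.0472 in edgeR) with 1 library of each state crossing.

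Scd2 in MF made the largest change of the 30 genes in any cell type among those called: 9.92, 4.22, 4.14 and 9.81 CPM in SS against 21.0, 34.7, 17.5 and 26.3 in MI, a 3.54-fold rise without overlap (log2 1.82, SE 0.24, adjusted p = 4.88e-06 in edgeR). Against SS numbers 2 and 3 alone (4.22 and 4.14 CPM) the fold was 5.94. SS numbers 1 and 4 held the higher SS values (9.92 and 9.81 CPM), so the rise against them alone was smaller, though still called. Fasn, at 26.2 ± 11.6 and 46.7 ± 15.7 CPM, and Srebf1, at 54.0 ± 8.09 and 77.1 ± 19.0, had higher means in MI without being called. Fdft1 was lost without MI MF replicates 1 or 4 or SS MF replicate 3 (0.0732 to 0.102), Srebf2 without MI MF replicate 3 (0.125) or SS MF replicate 1 (0.113), and Stard4 without any 1 of MI MF replicates 1, 2 and 3 and SS MF replicates 1, 2 and 3 (0.0561 to 0.159). The Scd2 call held without any 1 library. The 4 dendritic cell markers summed to 6.57 to 19.4 CPM in SS MF and 37.6 to 82.3 in MI MF, and the 10 cardiomyocyte markers to 170 to 242 and 58.1 to 144 (Ryr2 at 0 in MI). Of the dendritic cell markers 3 had a higher mean in MI, and Zbtb46 (4.169 and 2.554 CPM) had a lower one. Itgax alone averaged 7.5 and 40.92 CPM in SS and MI, and the others together 6.717 and 14.43. Of the cardiomyocyte markers 9 were lower in MI, and Myh6 (4.021 and 5.235 CPM) was higher. The sum of 8 adipocyte markers, 25.7 to 32.4 and 34.0 to 41.2 CPM, was almost all Lipe (27.9 and 37.1 CPM on average). The other 7 together averaged 0.437 and 0.150 CPM, with Plin1, Lep and Retn at 0 in both states. Each of these 3 sums separated the groups (adjusted p = 0.0547 in exact permutation tests). The part of the dendritic cell and cardiomyocyte markers in these results was not tested.

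In moDC, 2 of 23 sterol genes fell and 0 rose, and no fatty acid gene was called by edgeR or DESeq2 (1 of 7 at an unadjusted p under 0.05), so 2 of 30 were called, where the background was 4.84% called and 3.32% lower. Insig1 had 136, 141, 138 and 123 CPM in SS and 89.2, 82.3, 106 and 89.7 in MI (1.47-fold lower, log2 -0.55, SE 0.14, adjusted p = 0.0169 in edgeR). Stard4 had 15.0, 26.8, 14.8 and 15.4 CPM in SS and 8.64, 12.1, 9.27 and 8.21 in MI (1.89-fold lower, log2 -0.92, SE 0.24, adjusted p = 0.0190 in edgeR). Neither gene's libraries overlapped. Insig1 was lost without MI moDC replicates 1, 2 or 4 or SS moDC replicate 2 (0.0545 to 0.0861), and Stard4 without MI moDC replicates 1, 3 or 4 (0.0635 to 0.076) or SS moDC replicate 2 (0.151), which was its highest library. Neither passed against SS numbers 1 and 4 alone (0.0648 and 0.226). None of the 18 sterol enzymes was called by edgeR or DESeq2 (3 lower at an unadjusted p under 0.05), with a median of -0.15. The 10 mural cell markers summed to 44.9 to 364 CPM in SS moDC and 19.4 to 31.6 in MI moDC, the 10 endothelial markers to 105 to 368 and 59.7 to 83.5, and the 10 cardiomyocyte markers to 78.7 to 223 and 16.1 to 37.8. Of these 3 lists 9, 9 and 10 markers were lower in MI, where Kcnj8, Myh11 and Ryr2 were at 0. The 4 dendritic cell markers summed to 252.7 to 528.9 CPM in SS and 535.7 to 735.1 in MI, all 4 higher in MI. The 8 macrophage and monocyte markers summed to 24130 to 32720 and 19040 to 23220 CPM, with 5 lower in MI and Ccr2 (1542 and 2828), Fcgr1 (179.6 and 238) and Cd68 (850.1 and 930.3) higher. Each of these 5 sums separated the groups fully (adjusted p = 0.0547 in exact permutation tests). The part of these cells was not tested.

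In cDC1 the sterol enzyme sum in MI was the highest of the 4 cell types. None of the 23 sterol genes was called there in edgeR's main fit (1 higher and 3 lower at an unadjusted p under 0.05). DESeq2 called 1 of them lower, a mevalonate enzyme. Scd2 was the only call of the 30 in the main fit, where the background was 8.88% called, 2.16% higher and 6.73% lower. It had 95.0, 94.0, 93.9 and 86.2 CPM in SS and 170, 135, 144 and 140 in MI, a 1.60-fold rise (log2 0.675, SE 0.22, adjusted p = 0.0477 in edgeR) with no overlap. The call was lost without any 1 of the 8 libraries (0.0682 to 0.126) and with upper-quartile (0.0545) or DESeq2 size factors (0.0569). With upper-quartile scaling 0 of the 30 rose and 1 fell, and so it was with the replicate block and against SS numbers 2 and 3 alone. With only the groups compared in the fit 2 rose and 1 fell. Insig1 in cDC1 was 145, 202, 152 and 146 CPM in SS and 104, 115, 157 and 134 in MI, the ranges overlapping, and its change was not called. Several marker sums separated the states in cDC1. The 10 mural cell markers summed to 102 to 348 CPM in SS and 2.05 to 5.66 in MI, with Kcnj8, Cspg4 and Myh11 at 0 in MI. The 10 endothelial markers summed to 82.6 to 284 and 32.8 to 48 CPM (Emcn, Cldn5 and Tie1 at 0 in MI), and the 10 cardiomyocyte markers to 34.6 to 61 and 9.37 to 23.6 (Ryr2 at 0 in MI). The 10 fibroblast markers summed to 883 to 1056 and 799 to 841 CPM, of which Gsn averaged 930.6 and 808.2 and the other 9 together 27.2 and 2.00, with Pdgfra, Dpt and Postn at 0 in MI. All 40 markers of these 4 lists had a lower mean in MI. The 6 cDC2 markers summed to 55.9 to 69.4 and 21.9 to 32.6 CPM (5 lower in MI). The 9 neutrophil markers found in the count files, of 10 listed, summed to 3.61 to 9.10 and 1.33 to 2.37, with 7 of them at 0 in MI. Higher in MI were the sums of the 8 cDC1 markers (10270 to 11550 CPM in SS and 11920 to 12630 in MI) and the 4 dendritic cell markers (1051 to 1242 and 1365 to 1464). Of the 8, 6 had a higher mean in MI, while Cadm1 (586.2 and 457.1 CPM) and Batf3 (60.1 and 59.91) had a lower one. Naaa alone averaged 4529 and 5267 CPM, and the others together 6638 and 6964. Of the 4 dendritic cell markers 3 were higher, and Itgax (257.9 and 190.9 CPM) was lower. Each of these 8 sums separated the groups fully (adjusted p = 0.0547 in exact permutation tests). Their part was not tested.

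The size of the MI change itself differed among the 4 cell types for 3 of the 30 genes (background 6.80%). For Insig1 the log2 changes were 0.013 in MF, -0.55 in moDC, -1.004 in cDC2 and -0.33 in cDC1 (F test adjusted p = 0.0101 in edgeR). For Hmgcs1 they were 0.19, 0.18, -0.64 and -0.0014 (0.0309), and for Scd2 1.82, 0.55, 0.73 and 0.675 (0.0314). The Insig1 result held without any 1 library. Hmgcs1 was lost without any MI cDC2 replicate or SS cDC2 replicates 1 or 4 (0.0577 to 0.114), and Scd2 without MI MF replicates 2 or 4, SS MF replicates 2 or 3, MI moDC replicates 1 or 2 or MI cDC2 replicate 2 (0.051 to 0.132). For the other 27 genes, Stard4 among them, a difference of the MI change between cell types was not shown.

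**Figure D4:**
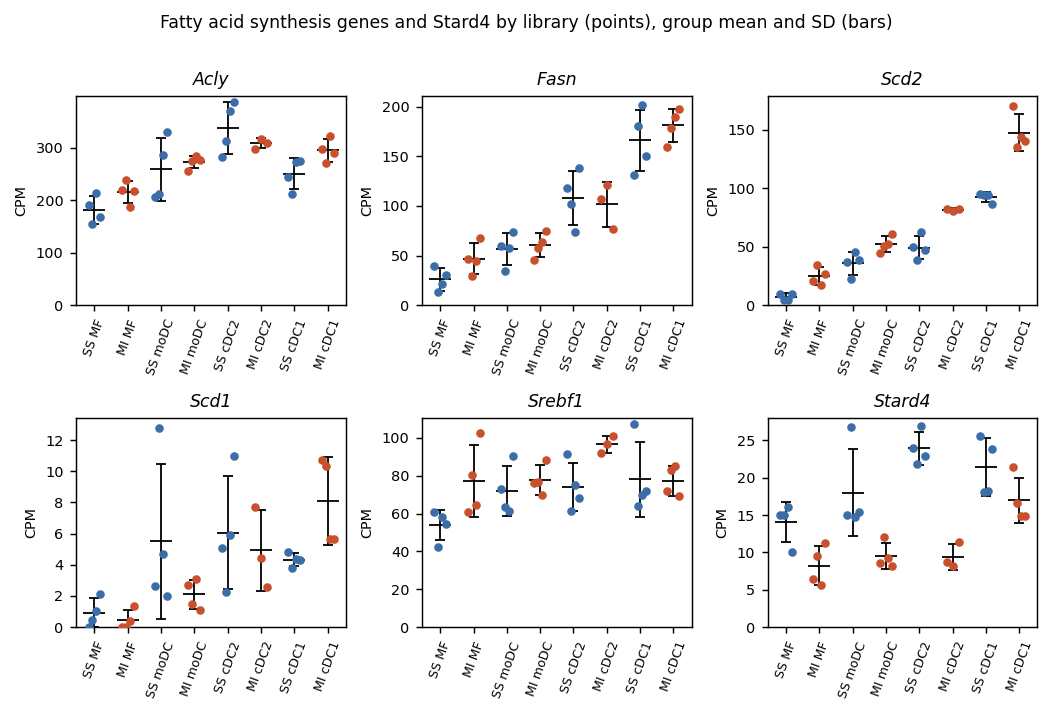
CPM (vertical, from 0) of Acly, Fasn, Scd2, Scd1, Srebf1 and Stard4 in every library (points, SS blue and MI orange) with group mean and SD (black bars). Scd2 is higher in MI than in SS without overlap in MF, cDC2 and cDC1, and Stard4 is lower without overlap in moDC and cDC2.

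Other genes of the pathways were read from 3 lists: 15 further sterol genes, 16 further fatty acid genes, and 12 genes of LXR and sterol export. Idi2 and Elovl3 did not pass the low-count filter. In SS, 9 of 14 tested, 8 of 15 tested and 11 of 12 tested differed among the cell types, where the background of all genes is 50.1%. Apoe, which carries exported cholesterol, ran steeply down, from 19860 ± 3540 in MF to 23.7 ± 7.79 CPM in cDC1 (F test adjusted p = 2.26e-17 in edgeR).

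Of the 15 further fatty acid genes tested, MI changed 3 in cDC2, 3 in cDC1, 2 in moDC and 0 in MF by edgeR, where the background of all genes called is 11.0%, 8.88%, 4.84% and 7.39%. In MF 2 passed at an unadjusted p under 0.05 and DESeq2 called 1. In cDC2 Fads1 and Fads2 rose and Mid1ip1, a regulator of acetyl-CoA carboxylase, fell (37.3 ± 10.5 to 21.9 ± 5.87 CPM, with overlap, edgeR adjusted p = 0.00485, and 0.0818 without MI cDC2 replicate 2). In moDC Mid1ip1 (68.9 ± 5.73 to 45.1 ± 7.09 CPM, edgeR adjusted p = 0.0240) and Tecr, a reductase of fatty acid elongation (156 ± 15.7 to 119 ± 14.5, 0.0462), fell without overlap. Both were lost without single libraries, Mid1ip1 without MI moDC replicates 1, 2 or 4 or SS moDC replicate 4 (0.0576 to 0.127) and Tecr without MI or SS moDC replicates 1, 2 or 3 (0.0501 to 0.207). In cDC1 Hacd2, a dehydratase of elongation, rose (81.5 ± 5.10 to 120 ± 16.7 CPM, edgeR adjusted p = 0.0124), and Tecr (121 ± 13.2 to 89.6 ± 10.8, 0.0127) and Acacb, an acetyl-CoA carboxylase at 0 to 3.85 CPM in SS and 0 in all 4 MI libraries (0.0206), fell. Tecr was lost without MI cDC1 replicates 2 or 3 or SS cDC1 replicate 1 (0.0518 to 0.0648) and Acacb without any 1 MI cDC1 library (0.0504 to 0.0578). Fads2, a desaturase in the making of polyunsaturated fatty acids, had 5.40, 6.18, 8.21 and 7.40 CPM in SS and 25.5, 28.6 and 26.9 in MI (3.97-fold, log2 1.99, SE 0.31, adjusted p = 2.77e-05 in edgeR). Fads1, which acts after it, had 78.6, 108, 108 and 94.5 CPM in SS and 175, 195 and 199 in MI (1.95-fold, log2 0.97, SE 0.13, adjusted p = 2.30e-06 in edgeR). The MI change of both differed among the cell types (6.73e-04 and 4.35e-05), and neither was called in MF, moDC or cDC1. In the export list, MI raised 4 and lowered 0 in MF, 3 and 0 in moDC, 2 and 3 in cDC2 and 3 and 1 in cDC1, out of 12 each. The background of all genes is 4.01% higher and 3.37% lower in MF, 1.52% and 3.32% in moDC, 4.41% and 6.63% in cDC2 and 2.16% and 6.73% in cDC1. Abcg1, a sterol exporter and LXR target, rose 3.33-fold in MF (42.7 ± 6.01 to 142 ± 27.9 CPM, edgeR adjusted p = 5.37e-07), 1.85-fold in moDC (0.00426) and 2.11-fold in cDC1 (4.35e-04), while it was 115 ± 7.39 and 145 ± 31.8 in SS and MI cDC2 without a call. Npc1, which lets cholesterol out of lysosomes, rose 2.15-fold in MF (edgeR adjusted p = 7.03e-04), 1.80-fold in moDC (0.0119) and 1.96-fold in cDC2 (0.00318), the moDC rise being lost without SS moDC replicate 2 (0.0744). These rises do not stand for the whole list, which held falls in cDC2 and cDC1 as counted above. The 1 that fell in cDC1 was Abca1, with a log2 change of -3.558 to -2.214 over 16 alternative runs and a call in 12. In MF Abca1 rose, with a log2 change of 0.9505 to 1.42 over 16 alternative runs and a call in 6. Apoe was among the genes that fell in cDC2, with a log2 change of -1.725 to -1.086 over 15 alternative runs and a call in all 15.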

How the data were processed

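RNA of 31 samples (4 ng each, SMART-Seq v4, 75 nt single reads) was measured, per the labels' protocols. The submitters' processing notes name FastQC 0.11.4, Trimmomatic 0.35, TopHat2 2.1.0, SAMtools 0.1.18 and mm10; the counting tool, annotation and strand setting were not given in the sources available. What the authors deposited are raw read counts per gene. The 5 entries for no gene stayed out of library sizes and tests. Single genes' counts carry amplification noise as well as counting error.

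Tests ran in R 4.3.3 with edgeR 4.0.16 (TMM, robust quasi-likelihood, filterByExpr with minimum count 10, a mean for each of 8 groups) and were tested on simulated data. All 30 members are accounted for, each called member is named for its contrast, and of 3 further lists at most 3 called genes per contrast, those with the smallest adjusted p, could be named. Abca1 and Apoe are named for their falls as well. Members and lists were chosen with earlier results of these data known. Alternatives were other scalings, no filter, DESeq2 1.42.0, only the groups compared, a replicate block, subsets of SS and leaving out each library. Same-numbered samples deviated together (correlation over 0.1 in 4 of 4 pairs) for SS MF with SS moDC and with SS cDC2, a pairing taken from the data; other pairs of groups did not meet this in every pair. Positions are GENCODE M21 (GRCm38). Some genes, and the results that need them, are not reported here.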

Additional observations from a re-analysis of the deposited data

Results flagged for a closer look

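Single libraries stood far from the other 3 of their group in 10 of 224 sets of 4 values examined (4.46%, where chance gives about 5%). The library was the highest for Pmvk in SS cDC1 replicate 1 (40.38 CPM, others 26.6 to 27.7), Lss in MI moDC replicate 3 (13.06, others 8.82 to 9.51), Scap in MI MF replicate 4 (81.44, others 43.2 to 49.6), Insig1 in SS cDC1 replicate 2 (202, others 145 to 152), Stard4 in SS moDC replicate 2 (26.75, others 14.8 to 15.4) and Elovl6 in SS cDC1 replicate 4 (15.01, others 6.26 to 7.45). It was the lowest for Cyp51 in MI MF replicate 1 (32.8, others 43.3 to 44.9), Nsdhl in SS MF replicate 4 (19.04, others 26.5 to 27.6), Scd2 in SS cDC1 replicate 4 (86.17, others 93.9 to 95.0) and the summed sterol enzymes in SS cDC2 replicate 4 (924, others 1048 to 1067).

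The change after MI differed among the 4 cell types for Insig1 (adjusted p = 0.01009 in edgeR's F test), Hmgcs1 (0.03094) and Scd2 (0.03141).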

How the results depend on the processing

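No called change of a member turned direction. Of 118 calls of members, 60 held under every alternative run and 58 were lost in at least 1. The count of members called moved by over 1.5 times as follows. With only the groups compared in the fit it was 1 for MI against SS in MF, 1 in moDC and 3 in cDC1, and 5 each for moDC against MF in SS and cDC2 against moDC in MI. Against SS numbers 1 and 4 alone it was 2 in MF and 0 in moDC, 1 for the MI effect among cell types, 5 for moDC against MF, 5 for cDC2 against moDC and 6 for cDC1 against cDC2. Against SS numbers 2 and 3 alone these were 8 in MF, 1 for the MI effect, 5 for moDC against MF and 4 for cDC2 against moDC. In cDC1 the MI count was 2 with DESeq2, 0 with DESeq2 size factors and 0 without the low-count filter. The cause was not tested.

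Leaving out 1 library gave counts of 2 to 4 in MF, 0 to 2 in moDC, 4 to 6 in cDC2, 0 to 1 in cDC1, and 1 to 4 for the MI effect. It gave 8 to 11 and 7 to 9 for moDC against MF in SS and MI, 7 to 10 and 1 to 2 for cDC2 against moDC, 6 to 11 and 7 to 10 for cDC1 against cDC2, and 20 to 26 and 20 to 23 for a level differing among cell types.

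Deviations of same-numbered samples correlated above 0.1 in 14 of 24 pairs within SS, 1 of 21 within MI and 0 of 15 between MI and SS. With the number as a block, MI against SS called 5 in MF, 2 in moDC, 7 in cDC2 and 1 in cDC1 (0 up and 1 down). Under the block by state and number, moDC against MF called 14 in SS and 12 in MI, cDC2 against moDC 11 and 3, cDC1 against cDC2 12 and 10, a level among cell types 26 and 24, and the MI effect 3. Depth limits Scd1, Elovl6 and Tm7sf2 most, the members with the lowest CPM.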

Other observations

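MI moDC replicate 3 was the highest of its 4 libraries for 11 of the 18 enzymes, while MI moDC replicate 1 was the highest for 0. SS cDC1 replicate 1 and MI cDC1 replicate 3 were each the highest for 9 of 18. In the other 5 groups no library was the highest for more than 8 of 18. For the 7 fatty acid genes, SS moDC replicate 4 was the highest for 5 and MI MF replicate 4 for 4.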
